A study of Coturnix japonica with 19 samples.

Results

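POMC, the gene of the adrenocorticotropic hormone precursor, and TBX19, the T-box transcription factor of the corticotroph, were followed in the pituitary glands of 19 Japanese quail. Both were taken by their symbol in the deposited table, where they are 2 of 19562 genes, and every transcript listed under each symbol was summed. POMC was listed with 2 transcripts (XM_015285103.3 and NM_001031098.1) and TBX19 with 1 (NM_204950.1). Each library was made from 1 bird. Adults were males of 5 weeks at the start that spent 2 weeks in long days and were then moved to short days. Those of the 8L group (8 h of light a day, n = 5) were collected after 56 days, while those of the 16L group (16 h, n = 5) were returned to long days and collected after 56 days there, so that light and time since hatch differ together in the adults. Juveniles were held in long days for 5 days after hatching, then in 16L (n = 4) or 8L (n = 5) for a further 5 days, and were collected on posthatch day 10. The strain is not given in the sources used here. Of the juveniles, 2 under 16L and 1 under 8L were listed as females.

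POMC encodes a large precursor that is cut by prohormone convertases in the secretory granule. In the corticotrophs of the anterior pituitary this releases adrenocorticotropic hormone, which drives glucocorticoid secretion by the adrenal gland, and glucocorticoids in turn restrain POMC. In mice, TBX19 (also called TPIT) acts with PITX1 to turn on POMC and is needed for corticotrophs to form. In chickens, corticotrophs lie mainly in the cephalic lobe and somatotrophs, the growth hormone cells, mainly in the caudal lobe.

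Library totals ran from 90599 to 4796665 counts, and 5 libraries were under 200000 (adult 8L replicate 2, juvenile 16L replicates 1 and 2, and juvenile 8L replicates 3 and 4). Levels are given as CPM (counts relative to 1000000 counts of the library), scaled by TMM factors over all 19 libraries. The table holds no transcript lengths, so levels are compared between birds and not between genes. The tissue carried its hormone genes, with GH and CGA above 100 CPM in every library. Juvenile 8L replicates 1 and 5 stood apart, with 0.163% and 0.427% of their counts on 6 hormone genes (POMC, PRL, GH, CGA, FSHB and TSHB) against 3.32% to 5.29% in the other birds of that group. In these libraries the summed level of the osteoblast markers (10 of 11 found) was 15429 and 12441 CPM, against 22.4 to 46.7 CPM over the 10 adults and 99.5 to 4489 CPM over the other 7 juveniles. The W-linked gene HINTW, a mark of female birds, had 120 counts in a juvenile listed as male (16L replicate 3) and 0 in a juvenile listed as female (16L replicate 2, with 91030 counts in all), so the listed sex was used only in an alternative fit.

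POMC was abundant in adults of both photoperiods. It took between 0.187% and 1.22% of all counts in an adult library. In adults under 16L its level was 8991, 6648, 7892, 4918 and 3199 CPM in replicates 1 to 5 (6329 ± 2314, SD, n = 5). In adults under 8L it was 8073, 1553, 3283, 5987 and 9747 CPM (5729 ± 3359, SD, n = 5). The highest and the lowest adult were both under 8L, and the 16L values lay wholly inside the 8L range.

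**Figure D1:**
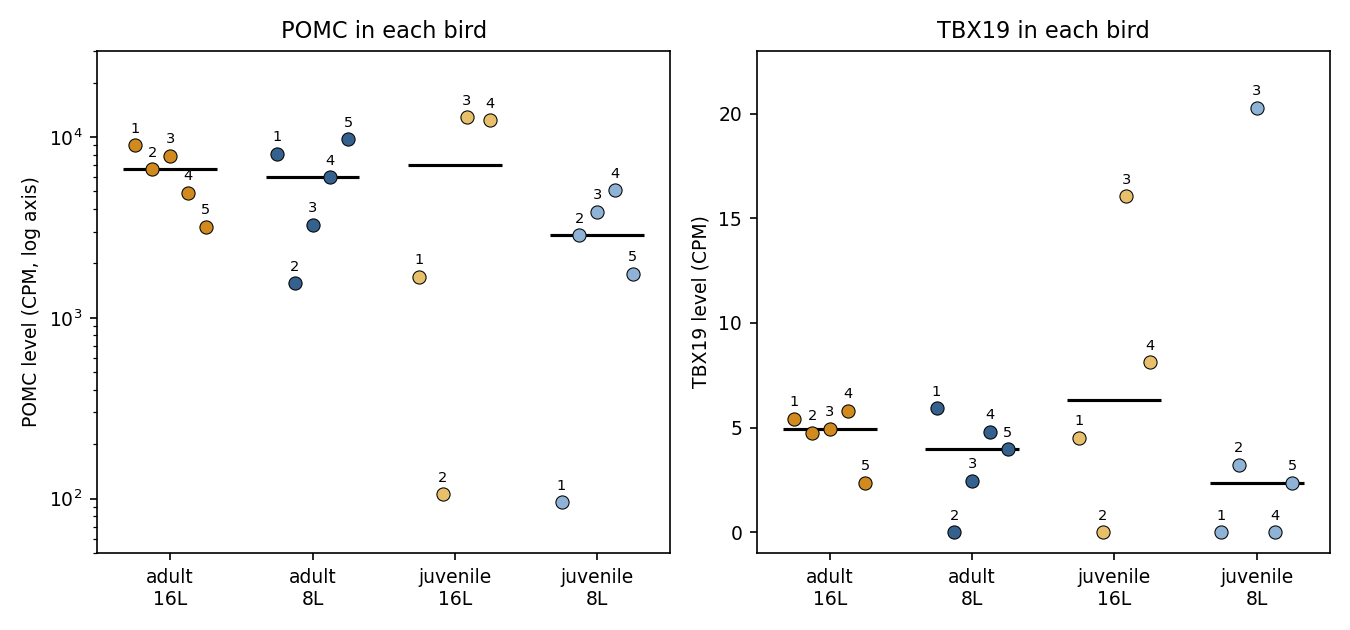
POMC level (left, CPM on a log axis) and TBX19 level (right, CPM) in each of the 19 birds by group, with the replicate number above each point and the group median as a bar. Adults fall between 1553 and 9747 CPM of POMC, while a juvenile of each photoperiod lies near 100 CPM (105.9 and 95.6), and the TBX19 points rest on 0 to 24 counts each.

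In juveniles POMC spread much wider. Under 16L it was 1692, 105.9, 12844 and 12384 CPM in replicates 1 to 4 (6757 ± 6797, SD, n = 4). Under 8L it was 95.6, 2861, 3852, 5088 and 1756 CPM in replicates 1 to 5 (2731 ± 1919, SD, n = 5). The 2 highest values of the series were both in juveniles under 16L, the lowest value of each juvenile group rested on 11 counts (16L replicate 2) and 25 counts (8L replicate 1), and the juvenile groups overlapped each other and both adult groups. Between the highest and the lowest bird POMC differed 6.28-fold in adults and 134-fold in juveniles. The SD of log2 CPM within groups was 0.87 in adults and 2.82 in juveniles, and this difference in spread was not tested. In bulk tissue, fewer corticotrophs and less POMC per corticotroph cannot be told apart.

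By mean CPM the order of the groups was juveniles 16L, adults 16L, adults 8L and juveniles 8L. By mean log2 CPM it was adults 16L (12.54), adults 8L (12.21), juveniles 16L (11.18) and juveniles 8L (10.62), so that juveniles 16L fall from the top to below both adult groups. No difference in mean log2 CPM between neighbours in the CPM order passed the test (two-sided exact permutation tests, p = 0.460, 0.595 and 0.175 in turn, the smallest p allowed being 0.00794). Juveniles under 16L and 8L were also compared directly (exact permutation p = 0.683).

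TBX19 was at the edge of detection. It had 87 counts over the whole series, between 0 and 24 in a bird, and 0 in 4 birds. Adults under 16L had 8, 4, 24, 6 and 3 counts, or 5.41, 4.76, 4.95, 5.79 and 2.37 CPM (4.66 ± 1.34, SD, n = 5). Adults under 8L had 11, 0, 3, 4 and 6 counts, or 5.92, 0, 2.46, 4.79 and 3.96 CPM (3.42 ± 2.29, SD, n = 5). All 5 adults under 16L had TBX19 counts, and the adult at 0 was from the shallow library of 128509 counts, in which 0 counts allow a level of up to 19.4 CPM.

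Juveniles under 16L had 1, 0, 6 and 2 counts of TBX19, or 4.53, 0, 16.1 and 8.13 CPM (7.18 ± 6.79, SD, n = 4). Juveniles under 8L had 0, 4, 4, 0 and 1 counts, or 0, 3.24, 20.3, 0 and 2.37 CPM (5.18 ± 8.56, SD, n = 5). The 3 juveniles at 0 allow levels of up to 28.9 CPM (16L replicate 2), 11.5 CPM (8L replicate 1) and 28.9 CPM (8L replicate 4), which are above most of the levels seen in other birds. Summed over a group, TBX19 stood at 4.75 CPM in adults 16L (95% Poisson interval 3.47 to 6.36), 4.30 in adults 8L (2.75 to 6.39), 9.53 in juveniles 16L (4.36 to 18.1) and 4.05 in juveniles 8L (1.85 to 7.69). These intervals cover counting error only, and they overlap. By mean CPM the order was juveniles 16L, juveniles 8L, adults 16L and adults 8L, but without replicate 3 (20.3 CPM on 4 counts) the mean of juveniles 8L was 1.40 CPM, the lowest of the groups. On mean log2 CPM they were also lowest (2.23, against 2.83 in juveniles 16L, 2.73 in adults 16L and 2.32 in adults 8L). The ranges of all 4 groups overlap, and the exact permutation tests on log2 CPM gave p = 0.349 for photoperiod in adults, 0.492 for photoperiod in juveniles, 0.857 for age under 16L and 0.857 for age under 8L.

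Photoperiod moved neither gene past the test. In adults the log2 fold change of POMC for 16L over 8L was 0.15 (SE 0.45, 95% interval -0.81 to 1.12, adjusted p = 1.00, edgeR quasi-likelihood test with Benjamini-Hochberg adjustment over 7478 genes). TBX19 was under the filter on low counts in every comparison and was fitted without it. Its log2 fold change in adults was 0.25 (SE 0.60, 95% interval -1.001 to 1.51, adjusted p = 0.994). Of all genes tested in adults, 0.0267% were called at an adjusted p under 0.05 with the filter and 0.0263% without it, and neither of the 2 genes was among them.

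In juveniles the log2 fold change of POMC for 16L over 8L was 1.21 (SE 1.16, 95% interval -1.38 to 3.80, edgeR adjusted p = 0.999) and that of TBX19 was 0.66 (SE 1.20, 95% interval -1.78 to 3.10, adjusted p = 0.928). Neither gene was called, where 0% of all genes were called with or without the filter (44 of 2405 at an unadjusted p under 0.05). The POMC value moved with the birds that entered it. The study's table lists the birds of each group in 2 successive runs, which the labels do not call a batch. In the first run the mean log2 CPM of POMC was 8.74 in juveniles 16L (n = 2) and 10.00 in juveniles 8L (n = 3), a difference of -1.26. In the second run it was 13.62 (n = 2) and 11.55 (n = 2), a difference of 2.08. With the run as a term the log2 fold change was 0.12, without the libraries under 200000 counts it was 2.98, and without juvenile 8L replicates 1 and 5 it was 0.73. The edgeR adjusted p over all alternatives of this comparison lay between 0.712 and 1.

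**Figure D2:**
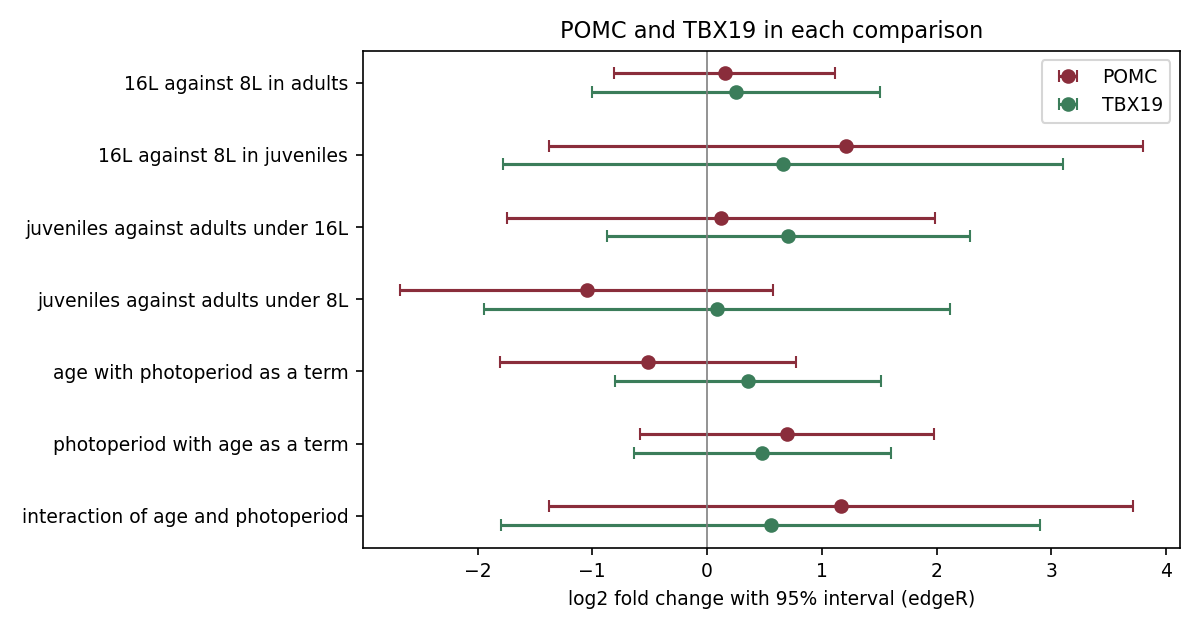
Log2 fold change of POMC (with the filter on low counts) and TBX19 (without it) in each comparison, as edgeR estimates with 95% intervals. For POMC the interval of photoperiod runs from -0.81 to 1.12 in adults and from -1.38 to 3.80 in juveniles, and all intervals of both genes include 0.

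Age moved neither gene past the test. Under 16L the log2 fold change of POMC in juveniles over adults was 0.12 (SE 0.86, 95% interval -1.74 to 1.98, edgeR adjusted p = 0.996), where 1.31% of all genes were called. The mean log2 CPM of the juveniles was 11.18 ± 3.25 (SD, n = 4) and that of the adults 12.54 ± 0.60 (SD, n = 5), a difference of -1.36 that goes the other way. The fitted value also turned negative without juvenile 16L replicate 3 or 4 or adult 16L replicate 5 (lowest -0.43), while without the libraries under 200000 counts it was 0.99 (SE 0.43, edgeR adjusted p = 0.329). Within the first run of birds the difference in mean log2 CPM was -4.19, and within the second it was 1.67. The fitted value turned to -0.80 with the run as a term. TBX19 had a log2 fold change of 0.71 (SE 0.76, 95% interval -0.87 to 2.29, adjusted p = 0.817, with 0.996% of genes called without the filter).

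Under 8L POMC had a log2 fold change of -1.05 in juveniles over adults (SE 0.75, 95% interval -2.67 to 0.58, edgeR adjusted p = 0.778), where 0.157% of all genes were called. Without the libraries under 200000 counts the value was -2.10 and without juvenile 8L replicates 1 and 5 it was -0.64. The difference in mean log2 CPM was -1.79 in the first run of birds and -0.95 in the second. TBX19 had a log2 fold change of 0.08 (SE 0.99, 95% interval -1.95 to 2.12, adjusted p = 0.987, with 0.741% of genes called without the filter). Comparisons that share a group are not independent of each other.

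In the fit of all 4 groups, POMC had a log2 fold change of -0.52 for age (SE 0.62, edgeR adjusted p = 0.803) and of 0.70 for photoperiod (SE 0.62, adjusted p = 1.00). The difference between the photoperiod effects of juveniles and adults was 1.17 for POMC (SE 1.22, 95% interval -1.38 to 3.71, adjusted p = 1.00) and 0.56 for TBX19 (SE 1.15, 95% interval -1.79 to 2.90, adjusted p = 1.00). These terms called 2.00% (age), 0.0140% (photoperiod) and 0% (interaction) of all genes.

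Both POMC transcripts were counted in all 19 birds. In RefSeq an NM accession marks a curated transcript and an XM accession a predicted one. The XM transcript took 89.6% of the POMC counts of the series and the NM transcript 10.4%. The NM share of a bird ran from 4.30% (juvenile 8L replicate 2, 95% Clopper-Pearson interval 3.65 to 5.02) to 18.3% (adult 16L replicate 2, 17.3 to 19.4). It was 11.9 ± 4.69% in adults 16L, 12.4 ± 4.87% in adults 8L, 10.7 ± 4.40% in juveniles 16L and 9.75 ± 4.53% in juveniles 8L (SD, n = 5, 5, 4 and 5). Birds of 1 group thus differed by more than their counting error, while no difference between groups passed a two-sided exact permutation test (adjusted p from 0.838 to 0.960 over 12 tests of shares and ratios). The shares are Salmon's division of reads between overlapping transcripts of 1 gene and are uncertain to that extent.

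**Figure D3:**
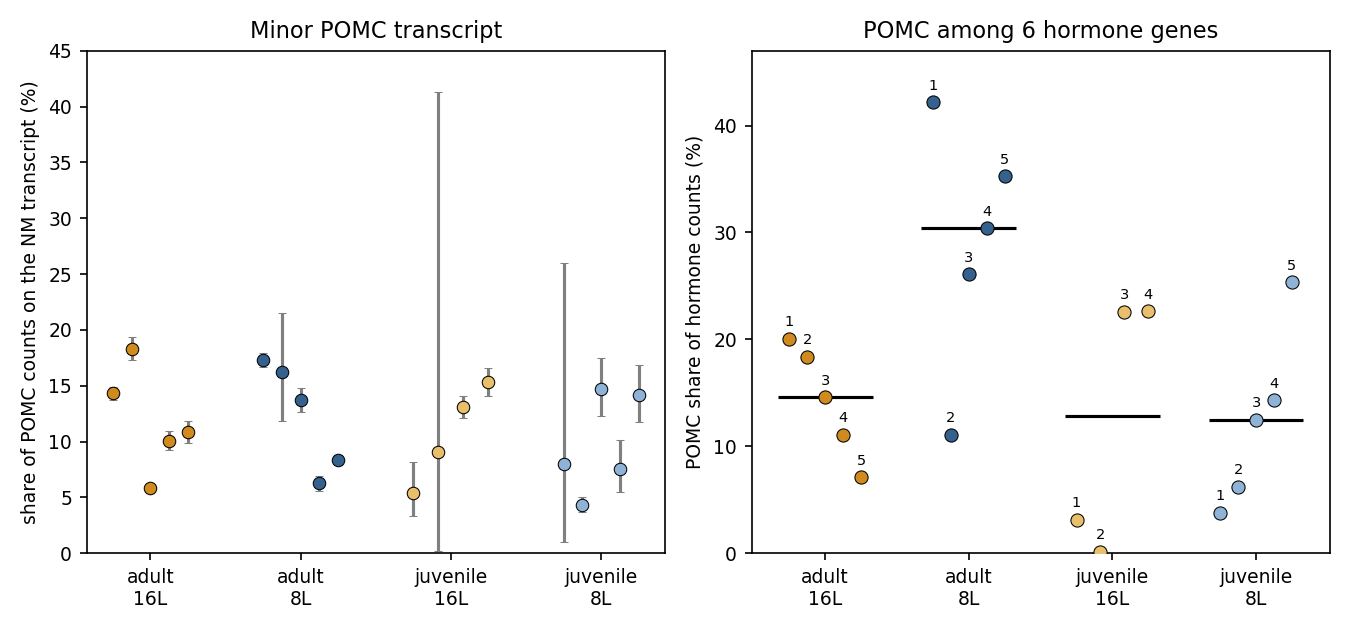
Share of POMC counts on the NM transcript in each bird with its 95% Clopper-Pearson interval (left, %) and share of POMC among the counts of 6 hormone genes in each bird with the group median as a bar (right, %). The NM share lies between 4.30% and 18.3% in all groups, and 4 of 5 adults under 8L have a higher POMC share of hormone counts than every adult under 16L.

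The share of POMC among the hormone genes was compared next, since it does not depend on how a library is scaled. The share of POMC in the counts of POMC, PRL, GH, CGA, FSHB and TSHB was 20.1, 18.4, 14.6, 11.1 and 7.13% in adults 16L (14.2 ± 5.28, SD, n = 5) and 42.2, 11.1, 26.1, 30.4 and 35.3% in adults 8L (29.0 ± 11.7, SD, n = 5). All but 1 of the 8L adults lay above the whole 16L group, and the exception was the shallow replicate 2. The difference was -14.8 percentage points (two-sided exact permutation test, p = 0.0397, adjusted p = 0.190 over the 12 tests), so it did not pass after adjustment.

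In juveniles the share was 3.13, 0.110, 22.6 and 22.6% under 16L (12.1 ± 12.2, SD, n = 4) and 3.76, 6.22, 12.5, 14.3 and 25.3% under 8L (12.4 ± 8.42, SD, n = 5). It differed from that of adults under 8L by -16.6 points (exact permutation p = 0.0476, adjusted p = 0.190), with overlap between the groups. The levels of the other hormone genes enter this share. In adults PRL (the lactotroph hormone), CGA (the subunit shared by the glycoprotein hormones) and FSHB (the follicle-stimulating hormone subunit) had log2 fold changes of 2.32, 1.46 and 3.25 for 16L over 8L, none past the adjusted edgeR test (adjusted p = 0.295, 0.327 and 0.831), while DESeq2 called PRL (adjusted p = 6.2e-04) and CGA (3.3e-05). Juveniles under 16L had more GH than adults (log2 fold change 3.91, SE 0.58, adjusted p = 0.00900) and less CGA (log2 fold change -2.58, SE 0.47, adjusted p = 0.0261) and FSHB (log2 fold change -4.76, SE 0.99, adjusted p = 0.0395). FSHB had only 3 counts in all juveniles 16L and 1 in all juveniles 8L, against 891 in adults 16L and 39 in adults 8L. It thus passed the filter only through the adults, where it was high. Of the 5 hormone genes found beside POMC, 1 rose and 2 fell in this comparison, where 0.211% of all genes were called higher and 1.10% lower, and 0 passed in the other comparisons of paired groups. The CGA call was lost without adult 16L replicate 4 (adjusted p = 0.0570), adult 16L replicate 5 (0.0554) or juvenile 16L replicate 1 (0.0551), and the FSHB call without any of adult 16L replicates 1, 3, 4 and 5 (0.0676, 0.0816, 0.0642 and 0.0693) and juvenile 16L replicates 2, 3 and 4 (0.0729, 0.0687 and 0.0838). GH remained called without each bird. With the replicate block all 3 calls were lost (adjusted p = 0.353 for GH, 0.399 for CGA and 0.492 for FSHB), as they were with the listed sex as a term (0.0762, 0.165 and 0.177). The replicate numbers do not pair the birds, and the listed sex goes against the HINTW counts of juvenile 16L replicates 2 and 3. These 2 fits therefore cannot decide whether the calls hold. With all groups in 1 fit CGA (0.139) and FSHB (0.0752) were lost, and FSHB also with the run of birds (0.0609) and without the libraries under 200000 counts (0.0781). For age over both photoperiods GH (log2 fold change 3.26, adjusted p = 6.6e-04), CGA (-1.90, adjusted p = 0.0471) and FSHB (-4.58, adjusted p = 0.00560) were again 1 gene higher and 2 lower, where 1.14% and 0.851% of all genes were called. There GH and FSHB were called in all 29 alternatives and CGA in 9 of 29, with the CGA adjusted p between 0.0568 and 0.0895 without any 1 of the 10 adults, of juvenile 16L replicates 1 to 4 or of juvenile 8L replicate 5. For FSHB all of these alternatives rest on the same few juvenile counts, so their number is not support. TSHB, the thyrotropin subunit, had a log2 fold change of -0.07 for age under 16L (edgeR adjusted p = 0.996). For age over both photoperiods it was -0.09 (adjusted p = 0.970).

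The low POMC birds differed in the rest of their hormones. In juvenile 16L replicate 2, with 11 POMC counts, GH was at 94459 CPM, the highest of the series, PRL at 414.0 CPM, CGA at 1030 CPM and TSHB at 0, beside 2436 CPM of osteoblast markers. In juvenile 8L replicate 1, with 25 POMC counts, GH was at 2234 CPM, PRL at 110.9 CPM, CGA at 103.3 CPM and TSHB and PITX1 at 0, beside 15429 CPM of osteoblast and 6706 CPM of cartilage markers. The first bird thus had abundant hormone RNA that was nearly all GH, and the second little of any hormone. The part of other cells in these values was not tested.

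**Figure D4:**
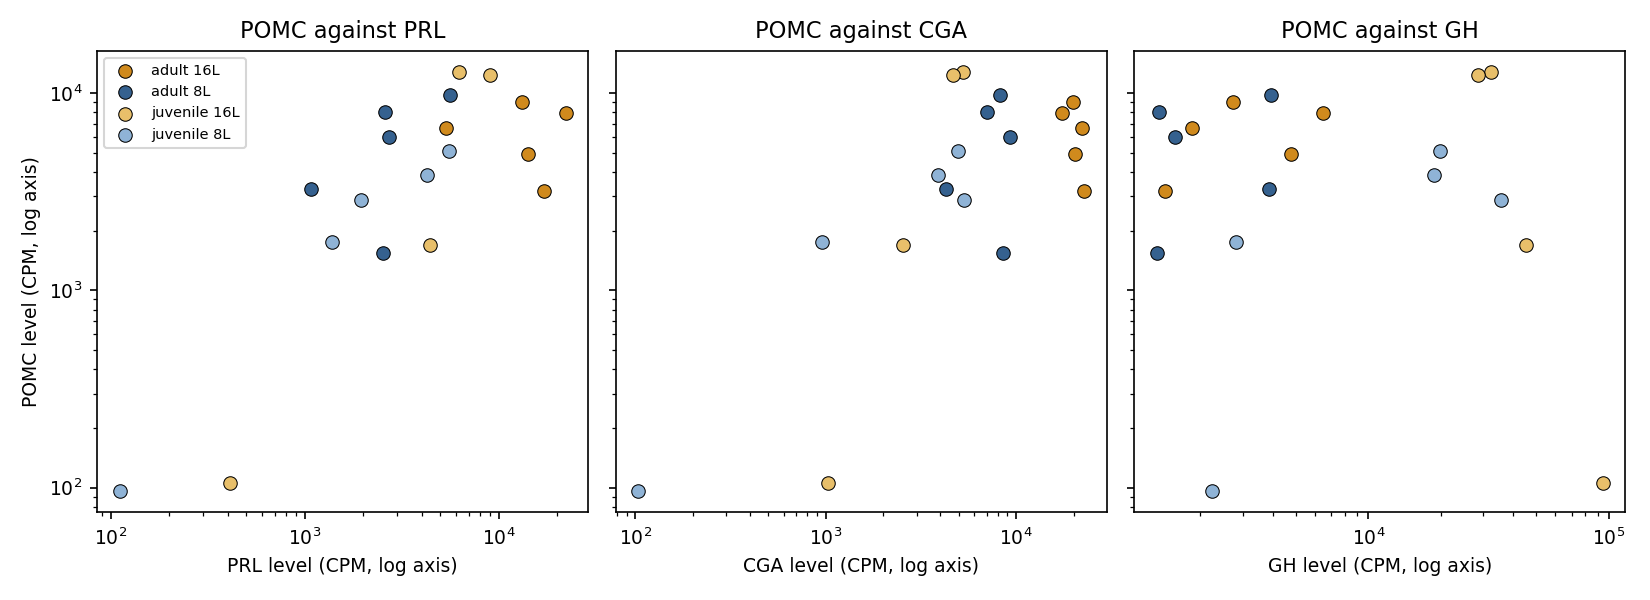
POMC level against PRL, CGA and GH levels (CPM, log axes) in the 19 birds, coloured by group. The 2 birds near 100 CPM of POMC are also the 2 lowest for PRL, whereas in GH they lie far apart (94459 and 2234 CPM).

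Over the 19 libraries the log2 CPM of POMC had a Pearson r of 0.81 with that of PRL, 0.77 with CGA and -0.15 with GH. These are descriptions over birds that share library depth and group, and much of the likeness rests on the 2 low juveniles (0.48 for PRL, 0.40 for CGA and 0.07 for GH without them). In the 10 adults alone r was 0.32 for PRL, 0.20 for CGA and 0.36 for GH. The 5 genes most like POMC among 4604 compared were RASD1 (r = 0.93), a glucocorticoid-inducible member of the Ras family, FAM155B (0.93), TCF25 (0.88), the homeobox gene SIX3 (0.87) and CADPS (0.87), which primes secretory vesicles. Without the 2 birds r was 0.72 for RASD1, 0.70 for FAM155B, 0.40 for TCF25, 0.47 for SIX3 and 0.17 for CADPS. Within the 10 adults alone RASD1 and FAM155B had r = 0.62 and 0.65, while TCF25, SIX3 and CADPS had 0.06, 0.05 and 0.07. POMC had r = 0.45 with the log2 library total.

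For TBX19 the 5 nearest genes among 4605 were HECW1 (r = 0.88), SDF2L1 (0.85), SMOC1 (0.82), DOPEY2 (0.82) and ASIC1 (0.81). With 0 to 24 counts of TBX19 a bird, the order of such genes is loosely fixed. Its r with the log2 library total was 0.32.

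POMC and TBX19 were compared with each other in 3 sets of birds, on log2 CPM. In the 10 adults Pearson's r was 0.89 (permutation p = 0.00263, adjusted p = 0.00394) and Spearman's rho 0.59 (p = 0.0795, adjusted p = 0.0912). Without the 2 adults farthest from the median of POMC (16L replicate 5 and 8L replicate 2) r was 0.56. In the 9 juveniles r was 0.69 (permutation p = 0.0386, adjusted p = 0.0386) and rho 0.61 (p = 0.0912, adjusted p = 0.0912), with r = 0.41 without 16L replicate 2 and 8L replicate 1. In 3 of these 4 birds TBX19 was at 0 counts, which allows levels up to the limits given above. Deviations from the group means were taken in all 19 birds, which are the same birds again. For these r was 0.71 (permutation p = 0.00081, adjusted p = 0.00243) and rho 0.75 (p = 0.00047, adjusted p = 0.00141). Without the 2 low juveniles r was 0.55. The SD of log2 CPM within groups was 0.87 in adults and 2.82 in juveniles for POMC, and 0.59 and 1.36 for TBX19. The permutation shuffled deviations over birds of such unlike spread, so its p for the deviations is not exact and may be too small. Without the libraries under 200000 counts r was 0.72 in adults (permutation p = 0.03065, adjusted p = 0.03065) and 0.90 for the deviations (permutation p = 8.0e-05, adjusted p = 1.6e-04). Within the 2 runs of birds r of the deviations was 0.85 (n = 10) and 0.41 (n = 9). Where birds were left out or split by run, the deviations kept the group means of all 19 birds. They are thus not centred on the birds used. For the deviations, these values therefore cannot show how the 2 genes vary within the groups of birds kept. Over the 19 birds with the group means left in, r was 0.67. For the same deviations POMC had r = 0.87 with PRL, 0.79 with CGA, 0.71 with PITX1, 0.53 with PCSK1 and 0.21 with GH. Over these deviations the correlation with TBX19 was thus not particular to this pair of genes. In the 10 adults alone r was 0.51 with PITX1, 0.36 with GH, 0.32 with PRL, 0.29 with PCSK1 and 0.20 with CGA. These lay under the 0.89 of TBX19 in adults, which fell to 0.56 without 2 birds. In the 9 juveniles r was 0.94 with PRL, 0.85 with CGA, 0.71 with PITX1, 0.57 with PCSK1 and 0.22 with GH. TBX19 had 0.69 there. These differences in r were not tested.

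Per 1000 POMC counts, adults had between 0.406 and 1.18 counts of TBX19 apart from the bird at 0, and juveniles between 0.656 and 5.26 apart from the 3 birds at 0. As log2 of the ratio of counts, with 1 added to each, TBX19 over POMC was -10.14 ± 0.44 in adults 16L (SD, n = 5), -9.84 ± 1.16 in adults 8L (n = 5), -7.64 ± 2.90 in juveniles 16L (n = 4) and -7.80 ± 1.92 in juveniles 8L (n = 5). Juveniles had the higher ratio under 16L by 2.51 (two-sided exact permutation p = 0.0238, adjusted p = 0.190) and under 8L by 2.04 (exact permutation p = 0.0714, adjusted p = 0.214). The added count sets the ratio in birds without TBX19, as in juvenile 16L replicate 2 (-3.58). Without libraries under 200000 counts the 16L difference was 0.44.

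The other corticotroph transcription factors gave no called change. Of 13 genes listed beside TBX19, 12 were found. For photoperiod in adults, photoperiod in juveniles, age under 16L and age under 8L, 6, 4, 6 and 5 were tested, with 0 called in each direction. Over all genes tested, 0.0267%, 0%, 1.31% and 0.157% were called in the same order, so 0 among so few genes is near that share. The listed genes had median log2 fold changes of 0.06, 0.43, -0.40 and -1.50 in the same order, beside 0.02, -0.08, -0.16 and -0.09 over all genes tested. PITX1, the partner of TBX19 in mice, was at 164.6 ± 53.3 CPM in adults 16L, 151.0 ± 50.5 in adults 8L, 89.9 ± 65.3 in juveniles 16L and 42.1 ± 34.2 in juveniles 8L (SD, n = 5, 5, 4 and 5). Its largest fitted difference was -1.89 for age under 8L (SE 0.74, edgeR adjusted p = 0.520). For age over both photoperiods it was -1.39 (SE 0.49, edgeR adjusted p = 0.179). The lowest PITX1 values of juveniles 8L, 0 and 16.6 CPM, were in replicates 1 and 5, the libraries high in osteoblast markers. The part of other cells in the PITX1 values was not tested. The r of PITX1 with POMC over the 19 birds was 0.75, or 0.70 without the 2 low juveniles. NEUROD1, a cofactor of POMC transcription in mice, had 95 counts in all and was under the filter in each comparison. NEUROD4 was not found by its symbol.

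The genes that carry signals to the corticotroph were mostly low. Of 18 genes of releasing peptides, receptors and binding proteins 15 were found, 4, 0, 5 and 2 were tested in the same order, and 0 were called. Over all genes 0.0267%, 0%, 1.31% and 0.157% were called in that order. CRHR1, the receptor of corticotropin-releasing hormone, had 43 counts in the series and 0 in all 5 juveniles under 8L. AVPR1B, the vasotocin receptor known from corticotrophs, had 205 counts, at 10.2 ± 9.39 CPM in adults 16L, 5.63 ± 4.64 in adults 8L, 4.04 ± 4.66 in juveniles 16L and 1.46 ± 3.26 in juveniles 8L. Of the juveniles 8L only replicate 2 had AVPR1B counts (7.28 CPM). NR3C1, the glucocorticoid receptor, was at 42.5 ± 14.8, 50.2 ± 26.9, 32.8 ± 25.5 and 26.6 ± 10.8 CPM in the same groups, with overlap throughout. SSTR2, a somatostatin receptor, had a log2 fold change of 1.87 in juveniles over adults under 16L (SE 0.61, edgeR adjusted p = 0.222), among the 4.26% of all genes with an unadjusted p under 0.01.

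The genes listed for the processing of peptides also gave no call. The list is wider than the enzymes that cut the POMC precursor. Of 10 genes 8 were found, 6, 3, 6 and 3 were tested, and 0 passed in either direction. The shares of all genes called were 0.0267%, 0%, 1.31% and 0.157% in the same order. In juveniles over adults under 16L all 6 had a positive log2 fold change, with a median of 0.93 beside -0.16 over all genes. FURIN, also on the list, was not among these 6 and went the other way. It was at 5.02 ± 3.64 CPM in adults 16L (54 counts) and had 0 counts in juveniles 16L, beside 5.45 ± 5.01 CPM in adults 8L and 12.1 ± 19.1 in juveniles 8L. Under 8L 2 of the 3 tested were positive and 1 negative, with a median of 0.42 beside -0.09. PCSK1, the convertase that releases adrenocorticotropic hormone, was at 18.99 ± 10.3 CPM in adults 16L, 7.64 ± 1.69 in adults 8L, 34.6 ± 17.3 in juveniles 16L and 30.02 ± 31.7 in juveniles 8L (SD, n = 5, 5, 4 and 5). Its log2 fold change in adults for 16L over 8L was 1.27 (SE 0.43, edgeR unadjusted p = 0.0103, adjusted p = 1.00). Of the 7478 genes tested there, 239 had an unadjusted p under 0.05. PCSK2, which cuts further towards melanotropin, had 206 counts and was under the filter in the 4 comparisons of paired groups. For age over both photoperiods it was tested (log2 fold change 1.77, SE 0.57, edgeR adjusted p = 0.134), as was PCSK1 (1.43, SE 0.45, adjusted p = 0.131). In that fit 7 genes of the list were tested, 7 had a positive log2 fold change (median 0.66, beside -0.18 over all genes) and 0 were called. In the 4 comparisons of paired groups CPE, which trims the cut ends, had log2 fold changes between 0.24 and 0.97 (adjusted p from 0.476 to 1.00). PAM, which amidates peptides, had values between -0.02 and 0.74 there (adjusted p from 0.779 to 1.00). For age over both photoperiods CPE had 0.66 (edgeR adjusted p = 0.377) and PAM 0.54 (adjusted p = 0.545).

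Receptors and related peptides of the melanocortin and opioid systems were scarce. Of 16 genes 12 were found and 0 reached the filter in the 4 comparisons of paired groups. PENK, the proenkephalin gene, reached it in the fit of all groups and is named here after its values were seen. It was at 1.96 ± 1.39 CPM in adults 16L, 4.25 ± 2.57 in adults 8L, 14.99 ± 9.45 in juveniles 16L and 17.5 ± 16.3 in juveniles 8L (SD, n = 5, 5, 4 and 5), on 78 counts in all. Its highest level was 4.06 CPM in adults 16L and 6.47 CPM in adults 8L, against 24.4 CPM in juveniles 16L and 38.5 CPM in juveniles 8L. PENK thus reached the filter only through the juveniles, where it was high. For age over both photoperiods its log2 fold change was 2.43 (SE 0.63, edgeR adjusted p = 0.0432), where 1.14% of all genes were called higher. As the filter had let it in through that age, the call is not support for a difference. PENK had a value in only 19 of the 29 alternatives of this fit. The call was lost in 9 of these 19, among them without adult 8L replicate 4 (adjusted p = 0.0535), juvenile 16L replicate 3 (0.0801) or 4 (0.0841), and juvenile 8L replicate 3 (0.0701) or 4 (0.0779). The summed level of the list ran from 3.83 to 42.8 CPM over all birds. MC2R, the receptor of adrenocorticotropic hormone in the adrenal gland, was not found by its symbol.

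Of 13 genes known to respond to glucocorticoids 9 were found, 4, 1, 4 and 4 were tested, and 0 passed the adjusted test. Over all genes 0.0267%, 0%, 1.31% and 0.157% passed it in the same order. FKBP5, a chaperone induced through the glucocorticoid receptor, was at 141.5, 114.3, 212.5, 179.6 and 127.3 CPM in adults 16L and at 52.2, 25.9, 48.3, 57.5 and 43.5 CPM in adults 8L. The log2 fold change in adults for 16L over 8L was 1.73 (SE 0.30, 95% interval 1.08 to 2.38, edgeR adjusted p = 0.125). FKBP5 was among the 0.669% of genes whose unadjusted p lay under 0.01, and DESeq2 called it (log2 fold change 1.71, adjusted p = 2.3e-05). In juveniles FKBP5 ranged from 154.0 to 511.2 CPM under 16L and from 3.83 to 500.6 CPM under 8L, with a log2 fold change of 0.71 (SE 0.93, adjusted p = 0.999). SGK1, a kinase of the same list, had a log2 fold change of 1.25 in adults (edgeR adjusted p = 1.00) and of 2.57 in juveniles over adults under 8L (SE 0.79, edgeR adjusted p = 0.433, DESeq2 adjusted p = 0.0256), where 2.10% of all genes were under an unadjusted p of 0.01 and the osteoblast marker sum also ran from 99.5 to 15429 CPM in juveniles against 22.4 to 38.2 CPM in adults. The part of these other cells in the SGK1 value was not tested.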

How the data were processed

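Pituitary RNA of 19 quail was read as complementary DNA on an Oxford Nanopore GridION. The authors aligned reads to a Coturnix japonica reference, and the submitters' processing notes name minimap2 and Salmon (versions are not given in the sources used here). The deposited table holds Salmon's estimated counts for 63260 transcripts of 19562 gene symbols, unnormalised, 99.3% to 99.6% of them whole. Of these 63260 transcript accessions, 0 were found in the RefSeq quail table at hand (Coturnix japonica 2.1), which lists POMC under 2 accessions of its own and no gene with the symbol TBX19, so the annotation behind the counts was not established and no coordinates are given. In each library 78 genes with near-identical counts (10 families) held 13.4% to 58.6% of the total, POMC and TBX19 not among them.

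Transcript counts were summed by symbol and rounded. Each comparison was fitted on its own groups with edgeR 4.0.16 (R 4.3.3; filterByExpr at 10 counts and a total of 15, TMM, quasi-likelihood F test in its legacy form), adjusted by the Benjamini-Hochberg method over all genes tested. Intervals of fold changes use the t distribution with the degrees of freedom of the fit. TBX19 did not reach the filter, so its fits are without it, a choice made after seeing the counts. The code was tested on simulated data. Log2 CPM used a prior count of 2, and single values were compared by two-sided exact permutation of birds (scipy 1.17.1; 100000 resamples for correlations). The genes named were POMC, TBX19, members of the gene lists with p under 0.01, up to 4 a list, a fixed set of defining members, and the 5 genes with the highest correlation to each, among genes with 10 or more counts in at least 10 libraries. The members and lists were chosen with earlier results of these data known. Low-count intervals are exact Poisson or Clopper-Pearson at 95%, with 3 counts as the limit for 0, and cover counting error only. Alternatives were DESeq2 1.42.0, RLE factors, no filter, all groups in 1 fit, the replicate number, listed sex or run of birds as a term, other prior counts, and leaving out gene copies, marker genes, shallow libraries, juvenile 8L replicates 1 and 5 (added after seeing the data) or each bird.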

Additional observations from a re-analysis of the deposited data

Results flagged for a closer look

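The TBX19 level of juvenile 8L replicate 3, 20.3 CPM, lay far from the other 4 birds of its group (0 to 3.24 CPM). Its gap to the nearest of them was 0.840 of the range of the group, above Dixon's critical value of 0.71 for 5 samples. The value stands on 4 counts in a library of 183695 counts (95% Poisson interval 5.53 to 51.9 CPM). In all, 20 groups of values were examined, of which chance flags about 1 in 20.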

How the results depend on the processing

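Neither POMC nor TBX19 was called in any of the 325 alternative edgeR or DESeq2 fits of its comparisons (lowest adjusted p 0.329). The direction held in 304 and turned in 21, all with adjusted p above 0.05. For POMC it turned in adults over photoperiod without libraries under 200000 counts (-0.081), and for age under 16L without the filter (-0.052), with the replicate number as a block (-1.20) and with the run of birds as a term (-0.80). For TBX19 (without the filter) it turned for age under 8L with the replicate block (-0.032), with the run of birds (-0.20) and without the shallow libraries (-0.94), and for the interaction without juvenile 8L replicates 1 and 5 (-0.076). Leaving out 1 bird at a time gave POMC -0.081 to 0.45 for photoperiod in adults and -0.43 to 0.50 for age under 16L. For TBX19 it gave -0.062 to 1.78 for photoperiod in juveniles, -0.082 to 0.96 for age under 16L, -0.95 to 0.38 for age under 8L, -0.020 to 0.48 for age over both photoperiods and -0.18 to 1.503 for the interaction. On log2 CPM the TBX19 age difference under 16L was -0.18 with a prior count of 0.5, and under 8L 0.024 with a prior count of 5.

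Of 162 alternatives for shares, ratios and correlations 26 turned a direction. Without the shallow libraries these were the log2 ratio of TBX19 to POMC for photoperiod in adults (0.17) and juveniles (-2.14), the NM share in adults (0.490 points), and the POMC share of hormone counts for photoperiod in juveniles (10.9 points, or 1.12 without juvenile 8L replicates 1 and 5) and for age under 16L (8.39 points). Leaving out each bird gave ratios of -0.61 to 0.17 in adults and -1.19 to 0.95 in juveniles, NM share differences of -2.09 to 1.03 (photoperiod, adults), -0.578 to 2.74 (photoperiod, juveniles) and -2.71 to 0.606 points (age, 16L), and hormone share differences of -3.81 to 3.71 (photoperiod, juveniles) and -5.62 to 1.89 points (age, 16L). None was past the test.

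The count of all genes called moved more. In adults over photoperiod 2 genes were called, 10 by DESeq2, 5 without the filter, 1 with all groups in 1 fit, 1 with the replicate block and 1 to 4 without each bird. In juveniles 0 were called, and 2 with all groups in 1 fit. For age under 16L 87 became 187 by DESeq2, 183 without the filter, 29 with all groups in 1 fit, 0 with the replicate block, 6 with listed sex, 36 with the run of birds, 136 without the shallow libraries and 25 to 84 without each bird. For age under 8L 8 became 107 by DESeq2, 4 by RLE factors, 135 without the filter, 55 with all groups in 1 fit, 1 with the replicate block, 38 with listed sex, 2 with the run of birds, 4 without gene copies, 2 without marker genes, 3 without the shallow libraries and 0 to 49 without each bird. The causes were not tested. Same-numbered birds of different groups did not deviate together (r from -0.115 to 0.109 over 27 pairs, 3 of them over 0.1), so the numbers do not pair the birds. Depth limits TBX19, with 1 count standing for up to 11.04 CPM before TMM scaling.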
